A study of Homo sapiens with 12 samples.

Results

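Gefitinib-treated HCC827 cells in co-culture with fibroblasts were compared with untreated HCC827 cells grown alone. The members were the 3 arrays titled as gefitinib-treated co-culture and the 3 titled as untreated control, 6 of the 12 arrays of the study, and no measured value entered their choice. HCC827 is a non-small cell lung cancer line with an activating EGFR mutation, and MRC-5 is a line of normal human lung fibroblasts. The study set HCC827 cells with or without gefitinib, an inhibitor of the EGFR kinase, against the same cells sharing their medium with MRC-5. The comparison described here asks what remains different from the untreated state when the drug and the fibroblasts act together. Each of the 4 groups (DMSO monoculture, gefitinib monoculture, co-culture, gefitinib co-culture) held 3 arrays.

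The DMSO monoculture group carried DMSO as its treatment label and no partner cells. In the gefitinib co-culture group, below also the treated co-culture, the label gives 0.5 µM gefitinib and MRC-5 cells. One protocol text, shared by all 12 arrays, has the drug given after 24 h, a PBS rinse and then 48 h with MRC-5 behind inserts of 1 µm pores in EMEM, whereas routine growth was in another medium. The sources used here do not give whether gefitinib was present during those 48 h, which medium the monoculture arms had then, or which of these steps the DMSO wells received. The co-culture group without gefitinib names no DMSO vehicle. Medium and co-culture therefore cannot be told apart in any difference between co-culture and monoculture arrays reported here. The titles of all co-culture arrays, with or without gefitinib, and of no monoculture array end in WH, and the labels do not explain this suffix. Any separate handling of those arrays likewise cannot be told apart from co-culture. Nothing in the labels says that the 3 arrays of a group came from separate cultures, so p-values measure only the spread between these samples, which may be technical.

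EGFR carries growth factor signals through the RAS and ERK cascade and through PI3 kinase, and cells driven by a mutant EGFR depend on these signals to divide. Blocking the kinase lowers ERK target genes and cell cycle genes in such cells and releases FOXO factors that PI3 kinase signalling keeps out of the nucleus. Fibroblasts secrete growth factors, cytokines and matrix proteins, and in co-culture with cancer cells they are known to lessen the response to kinase inhibitors.

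On each array 43.4% to 46.5% of the probes were detected, and the medians of the normalized intensities lay between 103.6 and 104.7. The scanner medians, before normalization, ranged from 99.1 to 102.6 in monoculture and from 105.5 to 109.7 in the 6 arrays with fibroblasts, and this shift cannot be told apart from the co-culture. Across the 11449 genes tested, the 3 DMSO arrays correlated with each other at r between 0.9957 and 0.9962 and the 3 gefitinib co-culture arrays at 0.9926 to 0.9951. Between these groups r was 0.9903 to 0.9920, and between gefitinib co-culture and gefitinib monoculture it was 0.9620 to 0.9644. These are correlations across genes within pairs of arrays.

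The treated co-culture differed from the untreated monoculture mostly by small changes. Part of the lipid synthesis genes, hypoxia-inducible genes, ID genes and NRF2 targets were lower, and several chemokine and inflammatory genes were higher. Of 11449 genes, 965 passed limma's test at a Benjamini-Hochberg adjusted p under 0.05, 8.43% of those tested. Of these, 359 were higher (3.14% of the tested genes) and 606 lower (5.29%). Counts of list members in this comparison are to be read beside these shares. At an unadjusted p under 0.05 there were 2658. In RNA from bulk samples fewer cells of a type and less RNA per cell cannot be told apart. The median log2 change of all genes was -0.028. A change of at least 2-fold was measured for 10 of the 965 genes, 2 upward and 8 downward. Levels are log2 normalized intensities without background subtraction, which compresses differences. With background subtraction (neqc, limma's normal-exponential correction with quantile scaling, run on the scanner intensities) the changes of the 965 called genes were larger by a median factor of 1.24. Of the 537 genes called with neqc itself, 65 reached 2-fold.

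The balance of rises and falls depended on the scaling of the arrays. As reported, 37.2% of the called genes were higher. This share was 54.8% with cyclic loess (472 higher, 390 lower), 53.4% with median scaling of the authors' values (466 and 406) and 26.9% with median scaling of the scanner values (253 and 688). The count of 965 was 630, 549 and 562 without DMSO replicate 1, 2 and 3 and 615 without gefitinib co-culture replicate 1. The single states, compared with the same DMSO arrays, had 4879 called genes for gefitinib monoculture (23.2% of the tested genes higher, 19.4% lower) and 1045 for co-culture (3.76% higher, 5.37% lower). Set directly against gefitinib monoculture, the treated co-culture differed in 5387 genes (47.1%), and against co-culture in 377 (3.29%), of which 152 were higher (1.33%) and 225 lower (1.97%). List counts from the single states or the direct contrasts are to be read beside the shares of their own contrast. The 3 values of the treated co-culture lay wholly above the 3 DMSO values in 1105 genes (9.65%) and wholly below them in 2025 (17.7%).

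**Figure D1:**
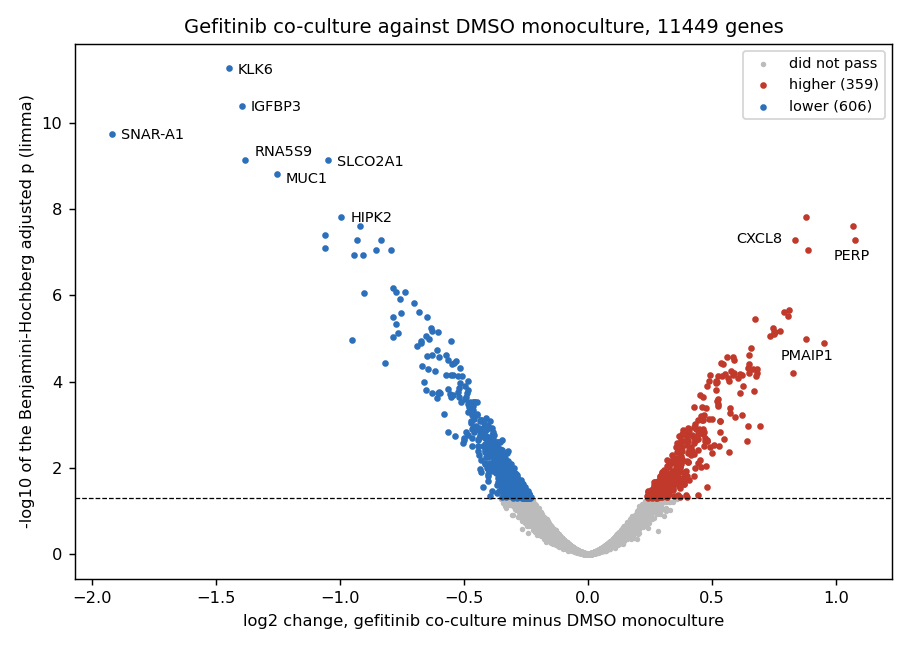
Log2 change of each of the 11449 genes (horizontal axis, gefitinib co-culture minus DMSO monoculture) against the -log10 of its Benjamini-Hochberg adjusted p from limma (vertical axis); the dashed line marks 0.05. The 359 higher genes are red and the 606 lower ones blue, and the falls reach further, to -1.92 for SNAR-A1, than the rises, to 1.08 for PERP.

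PERP, a desmosome protein and p53 target, had levels of 8.72, 8.52 and 8.38 on the DMSO arrays and 9.69, 9.52 and 9.64 on the gefitinib co-culture arrays. The groups did not overlap, and the log2 change was 1.08 ± 0.097 (SE, n = 3 arrays a group, adjusted p = 5.11e-08). PERP stood at means of 9.30 with gefitinib alone and 9.32 with co-culture alone, between the 2 compared groups. PMAIP1, which encodes the pro-apoptotic BH3-only protein NOXA, was at 9.14, 8.66 and 9.05 with DMSO and at 9.83, 9.75 and 9.91 in the treated co-culture. All 3 treated values lay above all DMSO values, and the change was 0.88 ± 0.11 (adjusted p = 9.95e-06). The mean of PMAIP1 was 8.89 in gefitinib monoculture and 9.77 in co-culture without the drug.

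CXCL8, the neutrophil chemokine interleukin 8, was at 8.71, 8.70 and 8.78 with DMSO and at 9.64, 9.55 and 9.51 in the treated co-culture. Every treated value was higher, and the change was 0.84 ± 0.076 (adjusted p = 5.13e-08). Gefitinib alone gave a mean of 10.21 and co-culture alone 9.09, so that the treated co-culture lay between them. It was 0.64 below gefitinib monoculture (log2 change -0.64, adjusted p = 1.3e-07) and 0.47 above co-culture (adjusted p = 2.2e-04). The other 9 of the 12 genes with the highest log2 change were RPL23AP64 (1.07), PTMA (0.95), TUBA3D (0.89), HNRNPC (0.88), AK6 (0.83), TXNL1 (0.81), RPL23AP87 (0.81), NACA4P (0.79) and LUC7L3 (0.78). PTMA encodes the nuclear protein prothymosin alpha, HNRNPC an RNA-binding protein of the spliceosome and TXNL1 a thioredoxin-like protein. RPL23AP64, RPL23AP87 and NACA4P are pseudogenes and TUBA3D has near-identical paralogs, so their signal may be shared with other copies and is uncertain. For LUC7L3 1 of the other 2 probes had the opposite sign.

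**Figure D2:**
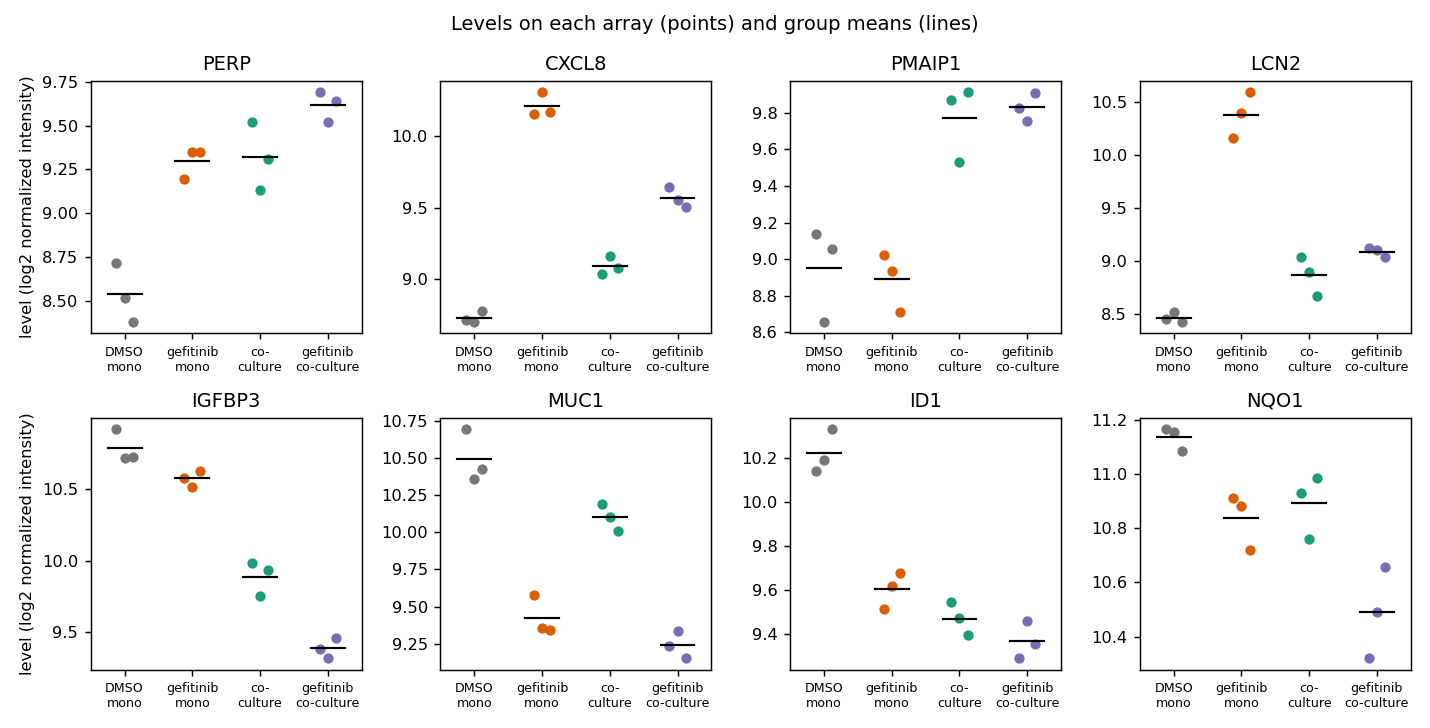
Levels (vertical axis, log2 normalized intensity, a separate scale for each gene) of 8 genes on each of the 12 arrays (points) with the mean of each group (lines). PERP, CXCL8, PMAIP1 and LCN2 were higher and IGFBP3, MUC1, ID1 and NQO1 lower on the 3 gefitinib co-culture arrays than on the 3 DMSO arrays; for CXCL8 the treated mean lay below the 10.21 of gefitinib monoculture.

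The largest fall was that of SNAR-A1, a small non-coding RNA made by RNA polymerase III. Its levels were 10.20, 10.41 and 10.20 with DMSO and 8.40, 8.51 and 8.15 in the treated co-culture, a log2 change of -1.92 ± 0.12 (adjusted p = 1.78e-10). KLK6, a secreted kallikrein protease, went from 9.96, 10.01 and 10.04 to 8.48, 8.55 and 8.65, a change of -1.45 ± 0.076 (adjusted p = 5.48e-12). In neither gene did the groups overlap. KLK6 was at a mean of 8.57 in gefitinib monoculture, beside which the treated co-culture did not pass the test (-0.013, adjusted p = 0.9), and at 9.42 in co-culture.

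IGFBP3, a secreted carrier that binds insulin-like growth factors, was at 10.91, 10.71 and 10.72 with DMSO and at 9.39, 9.32 and 9.46 in the treated co-culture. All treated values were lower, and the change was -1.39 ± 0.082 (adjusted p = 4.06e-11). Its mean was 10.57 in gefitinib monoculture and 9.89 in co-culture. MUC1, a membrane mucin of lung epithelium, went from 10.70, 10.36 and 10.43 to 9.24, 9.33 and 9.15, a change of -1.25 ± 0.092 (adjusted p = 1.51e-09). MUC1 was lower on all 3 treated arrays, and its mean was 9.43 in gefitinib monoculture and 10.10 in co-culture.

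The other 8 of the 12 lowest changes were those of RNA5S9 (-1.38), SNORD13 (-1.06), KRT16P2 (-1.06), SLCO2A1 (-1.05), HIPK2 (-0.99), BCYRN1 (-0.95), SNORA80E (-0.94) and HMGCS1 (-0.93). SLCO2A1 is a prostaglandin transporter, HIPK2 a nuclear kinase of the DNA damage response and HMGCS1 an early enzyme of cholesterol synthesis. RNA5S9 belongs to the 5S ribosomal RNAs, SNORD13 and SNORA80E are small nucleolar RNAs and BCYRN1 is a small cytoplasmic RNA. RNA5S9 and BCYRN1 have many near-identical copies and KRT16P2 is a keratin pseudogene, so these 3 are uncertain as to their source. Whether the probe of SNAR-A1 separates it from related copies was not tested.

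EGFR itself, the target of the drug, did not pass. Its levels were 11.81, 11.79 and 11.84 with DMSO and 11.77, 11.56 and 11.90 in the treated co-culture, a log2 change of -0.071 ± 0.09 (adjusted p = 0.701). The groups overlapped, among its 3 other probes 1 had the opposite sign, and the change was 0.020 without gefitinib co-culture replicate 2. Of the 11 tested members of the list of ErbB receptors, ligands and feedback regulators, 2 passed, both downward (median 0.071). BTC, the ligand betacellulin, fell by 0.36, a call that ended without DMSO replicate 2 (-0.28). The receptor ERBB2 changed by -0.29, and its call ended without DMSO replicate 1 (-0.23) or 2 (-0.29), without gefitinib co-culture replicate 1 (-0.23) or 2 (-0.30), and in 5 other settings.

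Of the 21 tested genes driven by ERK signalling, 5 passed (23.8%, beside 8.43% of all genes), 2 higher and 3 lower, and the 21 changes lay between -0.35 and 0.37. Their median of -0.0032 turned to 0.0047 with neqc, 0.037 with cyclic loess and 0.028 with median scaling of the authors' values. The counts were 1 rise and 2 falls with neqc, with median scaling of the scanner values, and without DMSO replicate 1 or 3 or gefitinib co-culture replicate 1 or 3. In gefitinib monoculture, against the same DMSO arrays, 15 of the 21 fell and 2 rose (median -0.58). EGR1, an immediate early transcription factor induced by ERK, was at 9.81, 10.00 and 9.81 with DMSO and at 10.21, 10.08 and 10.29 in the treated co-culture. The groups did not overlap and the change was 0.32 ± 0.083 (adjusted p = 0.0169). Its mean was 7.10 in gefitinib monoculture and 10.23 in co-culture, and the treated co-culture was 3.09 above the former (adjusted p = 1.1e-18). The EGR1 call ended without DMSO replicate 1 or 3 (0.29 each), without gefitinib co-culture replicate 1 (0.31) or 3 (0.27), with neqc (0.36) and with median scaling of the scanner values (0.27).

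DUSP6, the phosphatase that switches ERK off, lay on the other side. It was at 7.93, 7.87 and 7.88 with DMSO and at 7.50, 7.51 and 7.61 in the treated co-culture, all lower, a change of -0.35 ± 0.073 (adjusted p = 0.00254). Gefitinib monoculture had a mean of 6.77 for DUSP6 and co-culture 8.19. The Sprouty inhibitors of receptor kinase signalling moved apart, SPRY1 by -0.34 ± 0.077 (adjusted p = 0.00595) and SPRY2 by 0.37 ± 0.073 (adjusted p = 0.0018). CCND1, cyclin D1, changed by -0.25 with an adjusted p of 0.047, and the call ended in 15 settings, among them the removal of each DMSO replicate (-0.19, -0.26 and -0.30) and of gefitinib co-culture replicate 1 (-0.24) or 3 (-0.23).

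Of 17 tested members of the list of other receptor kinases and ligands, 4 fell (median -0.066). Besides IGFBP3 they were IGFBP6, a carrier of insulin-like growth factor 2 (-0.63 ± 0.085), the receptor FGFR3 (-0.46 ± 0.079) and AXL, a receptor kinase linked to resistance against EGFR inhibitors (-0.31 ± 0.078). The adjusted p was 2.46e-05 for IGFBP6, 3.67e-04 for FGFR3 and 0.0128 for AXL. The FGFR3 call ended with the mean of its probes (-0.24). The AXL call ended without DMSO replicate 1 or 2 (-0.29 each), without gefitinib co-culture replicate 1 (-0.26) and with neqc (-0.48). MET, the receptor of hepatocyte growth factor, had a change of 0.13 (adjusted p = 0.436).

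Of the 32 tested mitosis genes 3 passed (9.38%, beside 8.43% of all genes), all upward. Their median log2 change as a list was 0.011, or -0.034 with median scaling of the scanner values. In gefitinib monoculture all 32 had fallen, with a median of -1.81, against the same DMSO arrays. NEK2, a centrosome kinase, was at 9.74, 9.70 and 9.66 with DMSO and at 10.11, 10.21 and 10.26 in the treated co-culture. Each treated value was higher, and the change was 0.49 ± 0.075 (adjusted p = 9.63e-05), but its other probe had the opposite sign and averaging both ended the call (0.14). PLK1, the polo-like kinase of mitotic entry, changed by 0.33 ± 0.077 (adjusted p = 0.00807) and lost its call without DMSO replicate 2 (0.28). NUF2, a kinetochore protein, changed by 0.37 and lost its call without DMSO replicate 2 (0.33) or 3 (0.30), without gefitinib co-culture replicate 1 (0.29), with neqc (0.61) and with the mean of its probes (0.25). The count of 3 was 1 without DMSO replicate 2 and 2 without DMSO replicate 3 or gefitinib co-culture replicate 1. Without gefitinib co-culture replicate 3 there were 3 rises and 2 falls.

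Of 32 tested DNA replication genes, 1 rose and 3 fell (12.5% passed, beside 8.43% of all genes). The median of -0.018 turned to 0.02 with cyclic loess and 0.013 with median scaling of the authors' values. Gefitinib monoculture had 30 of the 32 lower (median -0.99). PCNA, the sliding clamp of DNA polymerases, rose by 0.40 ± 0.076 (adjusted p = 0.00115), although its other probe had the opposite sign and the mean of both ended the call (0.17). MCM6 and MCM4, subunits of the replicative helicase, and LIG1, a DNA ligase, changed by -0.33, -0.29 and -0.29. None of these 3 calls held without gefitinib co-culture replicate 1 (-0.30, -0.24 and -0.26), where no replication gene was called lower, and 1 was left without DMSO replicate 2 or 3 or gefitinib co-culture replicate 2. The 1 rise was 2 without DMSO replicate 3 or gefitinib co-culture replicate 3. CDKN1A, the p21 inhibitor of cyclin-dependent kinases, fell from 9.30, 9.25 and 9.23 to 8.82, 8.93 and 8.80, a change of -0.41 ± 0.078 (adjusted p = 0.00118). Gefitinib alone had a mean of 9.86 for CDKN1A, and co-culture 8.88. CDKN1B, the p27 inhibitor, changed by 0.30 and lost its call without any 1 DMSO replicate (0.29 to 0.31) and without gefitinib co-culture replicate 1 (0.29) or 2 (0.27).

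**Figure D3:**
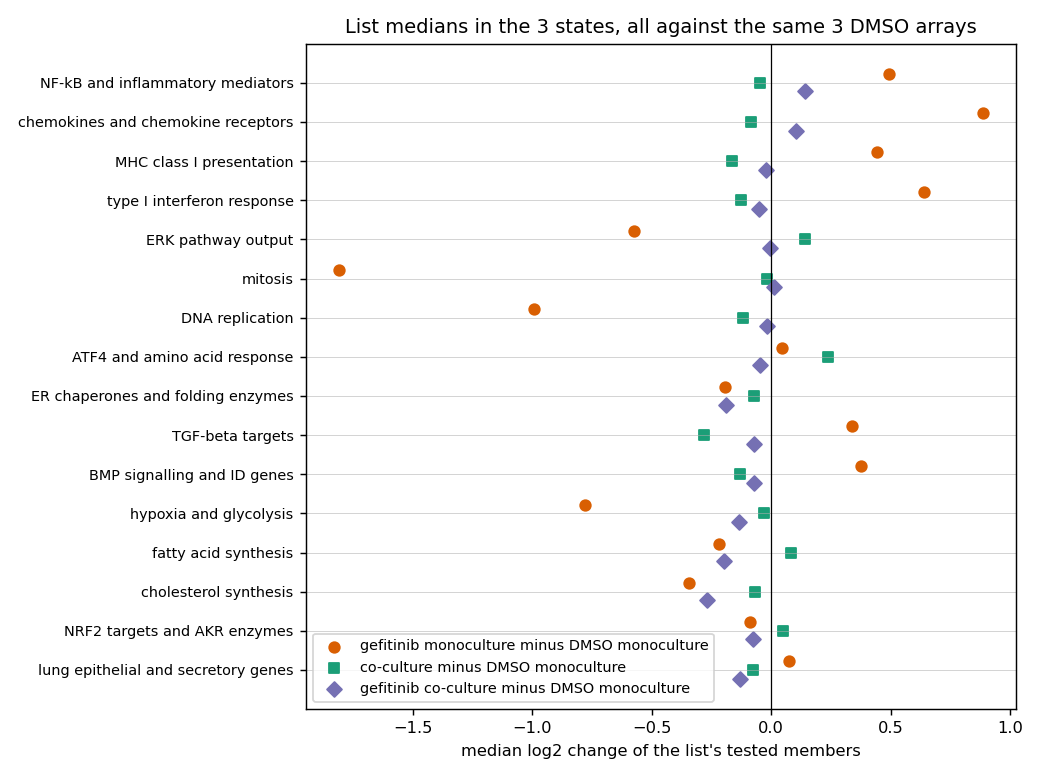
Median log2 change of the tested members of 16 gene lists (vertical axis) in gefitinib monoculture (circles), co-culture (squares) and gefitinib co-culture (diamonds), each minus the same 3 DMSO monoculture arrays (horizontal axis). For the mitosis list the medians were -1.81 with gefitinib alone and 0.011 in the treated co-culture, and for cholesterol synthesis they were -0.34 and -0.27.

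In the BCL2 family 1 of 14 tested members rose, PMAIP1 described above, and 2 fell (median 0.087). BAX, an effector of the mitochondrial death pathway, changed by -0.38 ± 0.083 (adjusted p = 0.00434) with its other probe of opposite sign, and averaging both ended the call (-0.11). BID, which links death receptors to mitochondria, had a change of -0.23 with an adjusted p of 0.0484, and the call ended in 18 settings, without each DMSO replicate (-0.21 to -0.25) and each gefitinib co-culture replicate (-0.22 to -0.26) among them. BMF and BCL2L11, the BH3-only proteins BMF and BIM, did not pass (0.13 and -0.09). The 1 rise in the family became 3 without gefitinib co-culture replicate 3, and 2 without its replicate 1, with median scaling of the authors' values or with the mean of each gene's probes. The 2 falls were 3 without co-culture replicate 3 and with only probes detected on all 12 arrays. Of 20 FOXO targets 3 rose (median 0.12). BCL6, a transcriptional repressor, went from 7.48, 7.53 and 7.34 to 8.11, 7.96 and 7.96, a change of 0.56 ± 0.077 (adjusted p = 2.63e-05). GADD45A, a stress sensor of growth arrest, rose by 0.40 ± 0.08 (adjusted p = 0.00201). The means of both in gefitinib monoculture lay above those of the treated co-culture, at 8.20 for BCL6 and 11.03 for GADD45A. CITED2, a transcriptional co-regulator, changed by 0.33 and lost its call without DMSO replicate 2 (0.33) or 3 (0.30), without gefitinib co-culture replicate 2 (0.29) or 3 (0.30) and with neqc (0.40).

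Inflammatory genes were higher in part. NF-kB is a family of transcription factors that cytokines release into the nucleus, where they raise chemokines and their own inhibitors. Of 20 tested NF-kB targets and inflammatory mediators 5 rose, and of 14 chemokines and receptors 5 rose, with medians of 0.14 and 0.10 against -0.028 for all genes. LCN2, the iron-binding protein lipocalin 2, was at 8.45, 8.51 and 8.43 with DMSO and at 9.13, 9.10 and 9.03 in the treated co-culture, without overlap, a change of 0.62 ± 0.097 (adjusted p = 1.25e-04). CFB, complement factor B, went from 8.20, 8.06 and 8.20 to 8.79, 8.63 and 8.65, all higher, a change of 0.54 ± 0.076 (adjusted p = 3.76e-05). Both stood further up in gefitinib monoculture, at means of 10.38 and 9.95, and at 8.87 and 8.25 in co-culture. With gefitinib alone 15 of the 20 members rose and 10 of the 14 chemokines, beside 23.2% of all genes, and 0 fell in either list. With co-culture alone 1 of the 20 rose and 7 fell, and 3 of the 14 chemokines rose and 2 fell. Of all genes 3.76% were higher and 5.37% lower with co-culture alone.

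TNFAIP3 encodes A20, an inhibitor of NF-kB that NF-kB itself induces, and its pattern differed from those of LCN2 and CFB. Its levels were 8.21, 8.03 and 8.13 with DMSO and 8.63, 8.32 and 8.57 in the treated co-culture, all higher, while the means of gefitinib monoculture and co-culture were 8.09 and 8.10. The change was 0.38 ± 0.087 (adjusted p = 0.00684), and it was lost without DMSO replicate 2 (0.33) or gefitinib co-culture replicate 1 (0.32). Against gefitinib monoculture the change was 0.41 (adjusted p = 3.6e-04) and against co-culture 0.40 (adjusted p = 0.0067). The promoter of TNFAIP3 is shown because it holds an NF-kB site and the gene passed the test against each of the other 3 groups. It spans chr6:137867009-137867308 on the plus strand of GRCh38.p14 in RefSeq, 250 bases before to 50 after the start of the gene, with the match in capitals.
TNFAIP3: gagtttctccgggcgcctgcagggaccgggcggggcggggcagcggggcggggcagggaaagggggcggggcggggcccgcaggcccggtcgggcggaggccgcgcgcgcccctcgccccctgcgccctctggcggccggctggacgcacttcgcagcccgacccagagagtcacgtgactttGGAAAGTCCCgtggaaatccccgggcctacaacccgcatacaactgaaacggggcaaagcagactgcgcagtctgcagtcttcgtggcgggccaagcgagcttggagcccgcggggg
The site was searched on both strands as GGGA, any 1 base and TTTCC, and it does not overlap another match. They occur in 0.579% of the 27305 promoters of the table, in 2 of the 5 NF-kB list members that rose (TNFAIP3 and IL32), and in 6 of the 17 tested members that have a promoter there.

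IL32, a cytokine, changed by 0.36 ± 0.088 (adjusted p = 0.0124), with means of 10.19 in gefitinib monoculture and 7.16 in co-culture on either side of the 7.97 of DMSO monoculture. Its other probe had the opposite sign, and the call ended with the mean of both (0.18), with neqc (0.51), without DMSO replicate 3 (0.30) and without gefitinib co-culture replicate 2 (0.27). Among chemokines, CXCL5 changed by 0.51 ± 0.082 (adjusted p = 1.55e-04), CXCL1 by 0.48 ± 0.13 (adjusted p = 0.0272) and CXCL2 by 0.43 ± 0.11 (adjusted p = 0.0151). CXCL5, CXCL1 and CXCL2 attract neutrophils through the receptor that also binds CXCL8. The CXCL5 call ended when its probes were averaged (0.16), 1 of which had the opposite sign. The CXCL1 and CXCL2 calls ended with neqc (0.73 and 0.61), without DMSO replicate 3 (0.49 and 0.36) and without gefitinib co-culture replicate 2 (0.48 for CXCL1, 0.34 for CXCL2), and that of CXCL1 also without DMSO replicate 1 (0.45) or 2 (0.51) or gefitinib co-culture replicate 1 (0.41). CCL2, a monocyte chemokine, and TRAF1, an adaptor of TNF receptors, completed the 2 counts (0.29 and 0.32), and both calls ended without DMSO replicate 3 (0.29 and 0.28), that of CCL2 also without DMSO replicate 1 (0.24) or gefitinib co-culture replicate 1 (0.21) or 2 (0.29). The 5 NF-kB rises were 3 without DMSO replicate 3. The 5 chemokine rises were 2 without DMSO replicate 3 or gefitinib co-culture replicate 2, and 3 without DMSO replicate 1 or gefitinib co-culture replicate 1. IL6, which signals through STAT3, and SOCS3, its feedback inhibitor, were the 2 of 17 tested members of the IL6 and STAT3 list that rose (0.34 and 0.36, median 0.042), and without gefitinib co-culture replicate 3 there were also 2 falls. The IL6 call ended without DMSO replicate 1 (0.27) or gefitinib co-culture replicate 2 (0.25) and with neqc (0.41), and that of SOCS3 without DMSO replicate 3 (0.32) and when its probes were averaged (0.19).

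**Figure D4:**
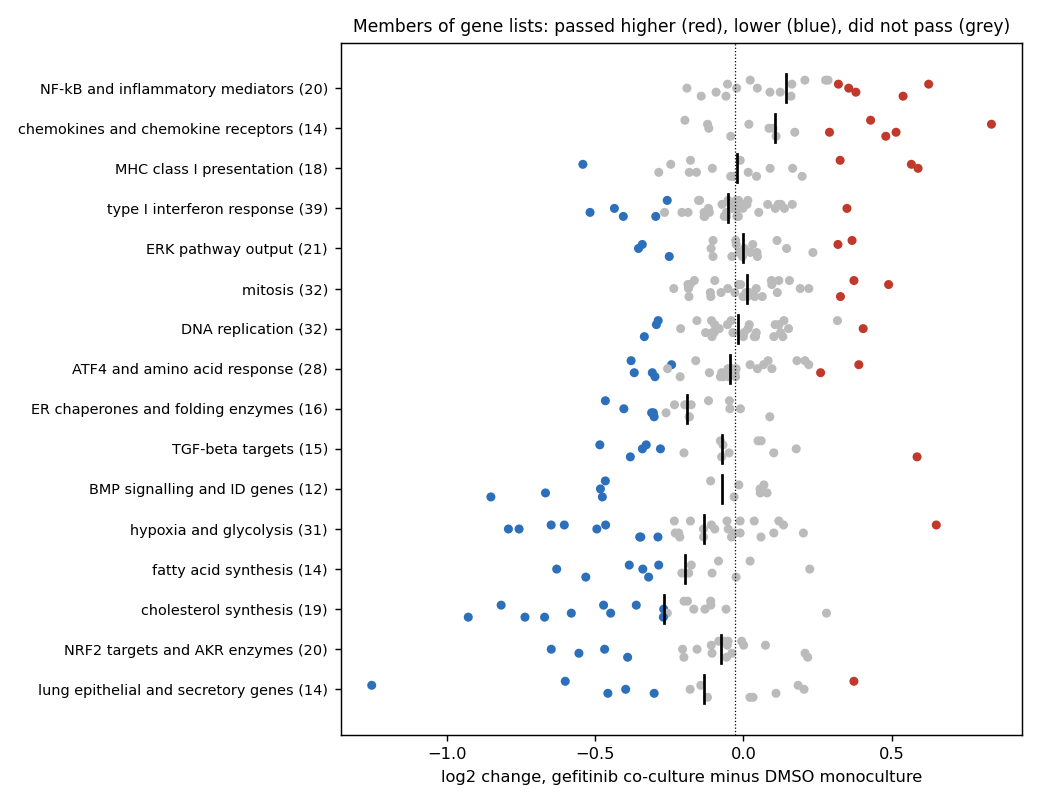
Log2 change of each tested member (points) of 16 gene lists in gefitinib co-culture minus DMSO monoculture (horizontal axis); the number tested stands beside each name, black bars are list medians and the dotted line is the median of all genes, -0.028. Members that passed limma's test are red when higher and blue when lower; 10 of 19 cholesterol synthesis genes are blue, and 5 of 14 chemokines are red.

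Genes of the type I interferon response, by which cells raise antiviral proteins, lay mostly close to or below their untreated levels. Of 39 tested genes 1 rose and 5 fell (median -0.05), whereas gefitinib monoculture had 36 of the 39 higher (median 0.64). IFITM2, IFITM3 and BST2, membrane proteins that block virus entry or release, fell by 0.52 ± 0.081, 0.44 ± 0.086 and 0.41 ± 0.081. IFITM3 was at 9.76, 9.71 and 9.86 with DMSO and at 9.46, 9.43 and 9.13 in the treated co-culture, without overlap (adjusted p = 0.00168). Its mean was 10.52 in gefitinib monoculture and 9.35 in co-culture. BST2 went from 7.54, 7.66 and 7.62 to 7.31, 7.23 and 7.06, all lower (adjusted p = 0.00188), with means of 7.90 in gefitinib monoculture and 7.39 in co-culture. PARP14, an ADP-ribosyltransferase, changed by -0.30, a call that ended without DMSO replicate 1 (-0.27) or 3 (-0.29) or gefitinib co-culture replicate 2 (-0.26). IFIT2 was the member that rose, by 0.35 ± 0.094 (adjusted p = 0.0209), and its call ended without DMSO replicate 2 (0.35) or 3 (0.30), without gefitinib co-culture replicate 2 (0.24) and with neqc (0.60). IFI6, an interferon-induced mitochondrial protein, was the fifth fall (-0.26), and its call ended in 15 settings, among them without any 1 DMSO replicate (-0.25 to -0.27) and without gefitinib co-culture replicate 1 (-0.19) or 3 (-0.25). The count of 5 falls was 3 without DMSO replicate 1 or 3.

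The promoters of IFITM3 and BST2 are shown because these 2 genes rose with the drug alone and lay below the untreated level in the treated co-culture. Capitals mark interferon-stimulated response elements, searched on both strands as GAAA, any 2 bases and GAAA. IFITM3 is at chr11:320811-321110 and BST2 at chr19:17405581-17405880, both on the minus strand of GRCh38.p14 in RefSeq; overlapping matches in BST2 run together.
IFITM3: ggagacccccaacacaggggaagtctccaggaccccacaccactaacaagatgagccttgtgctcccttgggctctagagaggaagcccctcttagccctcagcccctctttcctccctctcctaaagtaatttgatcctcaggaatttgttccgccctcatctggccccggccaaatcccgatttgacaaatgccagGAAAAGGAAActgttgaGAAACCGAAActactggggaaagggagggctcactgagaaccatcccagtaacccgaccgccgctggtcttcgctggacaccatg
BST2: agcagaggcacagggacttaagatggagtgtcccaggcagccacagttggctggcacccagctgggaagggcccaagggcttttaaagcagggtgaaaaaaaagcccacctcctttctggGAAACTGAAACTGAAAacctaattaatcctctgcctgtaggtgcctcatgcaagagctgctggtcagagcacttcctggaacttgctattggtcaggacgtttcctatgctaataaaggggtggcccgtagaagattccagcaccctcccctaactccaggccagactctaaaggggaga
These letters were found in 3.65% of all promoters of the table. They were found in 4 of the 4 lower list members that have a promoter there, and in 22 of the 33 tested members with one.

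MHC class I genes, which present peptides to T cells, had 3 of 18 tested members higher and 1 lower. The 1 fall was 3 without gefitinib co-culture replicate 2, beside 3 rises, and 2 without co-culture replicate 1, with median scaling of the scanner values, with the intensity trend and with the replicate block. The median was -0.023 and turned to 0.015 with cyclic loess and 0.0082 with median scaling of the authors' values. HLA-F went from 8.56, 8.67 and 8.65 to 9.22, 9.33 and 9.10, a change of 0.59 ± 0.082 (adjusted p = 3.20e-05). HLA-G rose by 0.57 ± 0.085 (adjusted p = 8.30e-05). HLA-B changed by 0.33 and lost its call without DMSO replicate 2 (0.29) or gefitinib co-culture replicate 1 (0.25), with neqc (0.40) and with median scaling of the scanner values (0.29). Probes of HLA genes can share signal between near-identical family members, so these values are uncertain as to the gene. ERAP2, which trims peptides for MHC class I, changed by -0.54 ± 0.088 (adjusted p = 2.06e-04), with its other probe of opposite sign, and averaging both ended the call (-0.22).

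BMP ligands act through SMAD proteins on the ID genes, which hold back differentiation factors. Of 12 tested members of the BMP list 5 passed, all lower (median -0.071). That count was 5 without any 1 of the 12 arrays and 3 with neqc. ID1 was at 10.14, 10.19 and 10.33 with DMSO and at 9.29, 9.46 and 9.36 in the treated co-culture, all lower, a change of -0.85 ± 0.08 (adjusted p = 8.96e-08). ID2 went from 8.88, 8.70 and 8.96 to 8.12, 8.28 and 8.14, a change of -0.67 ± 0.095 (adjusted p = 4.31e-05). ID3 changed by -0.48 ± 0.095 (adjusted p = 0.00171), and its call ended with neqc (-0.53). BAMBI, a decoy receptor of this pathway, changed by -0.48 ± 0.081 (adjusted p = 3.76e-04), and the fifth member was SMAD6, an inhibitory SMAD (-0.47), which was detected on 2 of 3 treated arrays and lost its call with neqc (-1.12). The single states differed for these genes. In gefitinib monoculture ID1 had a mean of 9.60 but ID2 and ID3 had means of 9.43 and 11.14, above DMSO, and in co-culture the means were 9.47, 7.93 and 8.46. ID3 in the treated co-culture was 0.87 above co-culture (adjusted p = 8.9e-07) and 1.81 below gefitinib monoculture (log2 change -1.81, adjusted p = 6.6e-14).

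TGF-beta targets had 1 rise and 5 falls among 15 tested members (median -0.074). TAGLN, the actin-binding protein transgelin, rose from 8.09, 8.06 and 7.92 to 8.68, 8.59 and 8.55, a change of 0.59 ± 0.087 (adjusted p = 7.07e-05). TGFBI, a secreted adhesion protein, and BHLHE40, a transcriptional repressor, fell by 0.48 ± 0.082 and 0.38 ± 0.074. PMEPA1, which restrains TGF-beta receptor signalling, changed by -0.33 ± 0.076 (adjusted p = 0.0074), with means of 10.85 in gefitinib monoculture and 8.43 in co-culture around the 9.15 of DMSO. LTBP3, a binding protein of latent TGF-beta, changed by -0.34 and lost its call without DMSO replicate 1 (-0.26). The fifth fall was COL4A1, a basement membrane collagen (-0.28), whose call ended without DMSO replicate 1 (-0.22) or 3 (-0.29) and without gefitinib co-culture replicate 1 (-0.27) or 2 (-0.25). Without DMSO replicate 1 the 5 falls were 3. Of 16 tested YAP targets 1 rose and 1, AXL, fell (median -0.10). ANKRD1, a nuclear ankyrin repeat protein, was the 1 that rose (0.28), with a call that ended without DMSO replicate 2 (0.25) or 3 (0.23) and without each gefitinib co-culture replicate (0.27 to 0.29).

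Sterol and fatty acid synthesis genes, which SREBP factors raise when membranes lack lipid, were the most often lower of the metabolic lists. Of 19 tested cholesterol synthesis genes 10 passed, all downward, and 18 of the 19 had a negative change (median -0.27). The count of lower genes was between 8 and 10 when 1 array was left out. HMGCS1 was at 10.47, 10.54 and 10.28 with DMSO and at 9.64, 9.41 and 9.45 in the treated co-culture, without overlap, a change of -0.93 ± 0.084 (adjusted p = 5.13e-08). Its mean was 9.76 in gefitinib monoculture and 10.39 in co-culture. INSIG1, which retains the SREBP activator in the ER, went from 10.84, 10.87 and 10.75 to 10.02, 9.88 and 10.11, all lower, a change of -0.82 ± 0.11 (adjusted p = 3.64e-05). MSMO1, a sterol oxidase, and ACAT2, a thiolase, fell by 0.74 ± 0.079 and 0.67 ± 0.086, and 1 of the 2 other probes of MSMO1 had the opposite sign. The other 6 that fell were SQLE, squalene epoxidase (-0.58), EBP (-0.47), MVD (-0.45), NSDHL (-0.36), SC5D (-0.27) and DHCR7 (-0.27), all enzymes of the pathway. The calls of SC5D and DHCR7 ended without any 1 DMSO replicate (-0.25 to -0.30) and without gefitinib co-culture replicate 2 (-0.27 and -0.26) or 3 (-0.24 and -0.27), that of DHCR7 also without replicate 1 (-0.28). CYP51A1, a sterol demethylase, was the 1 member with a positive change (0.28, adjusted p = 0.0571). It passed, higher, without DMSO replicate 1 (0.34) or gefitinib co-culture replicate 1 (0.34) and in 5 other settings. The sterol regulatory element, searched as TCACNCCAC on both strands, was found in 0 of the 8 promoters available for these 10 genes and in 1.15% of all promoters.

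Fatty acid synthesis followed with 6 of 14 tested members lower (median -0.20). SCD, the desaturase that makes oleic acid, was at 12.53, 12.56 and 12.55 with DMSO and at 11.86, 11.82 and 12.06 in the treated co-culture, a change of -0.63 ± 0.076 (adjusted p = 5.65e-06). All 3 treated values were lower, and the mean was 11.26 in gefitinib monoculture and 12.59 in co-culture. LPIN1, a phosphatidate phosphatase, and FASN, fatty acid synthase, fell by 0.53 ± 0.074 and 0.39 ± 0.076. FADS1, a desaturase of polyunsaturated fatty acids, changed by -0.34 and lost its call without DMSO replicate 3 (-0.29) or gefitinib co-culture replicate 2 (-0.27) and with neqc (-0.39). The remaining falls were those of ACACA, acetyl-CoA carboxylase (-0.32), and ACSS2, acetyl-CoA synthetase (-0.29), and both calls ended without DMSO replicate 1 (-0.27 each) or gefitinib co-culture replicate 2 (-0.28 and -0.24), that of ACACA also without DMSO replicate 2 (-0.32) or gefitinib co-culture replicate 1 (-0.29). The 6 falls were 3, with 1 rise, without gefitinib co-culture replicate 2, and 4 without DMSO replicate 1. Cyclic loess and median scaling of the authors' values each gave 6 falls and 1 rise. Against co-culture without the drug 7 of the 14 were lower, and 6 of the 19 cholesterol genes, beside 1.97% of all genes.

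HIF factors raise glucose uptake and glycolysis when oxygen is low. Of 31 tested hypoxia and glycolysis genes 1 rose and 9 fell (median -0.13). ALDOC, an aldolase, went from 9.82, 9.75 and 9.88 to 9.00, 9.03 and 9.05, without overlap, a change of -0.79 ± 0.075 (adjusted p = 8.96e-08). PFKFB4, a regulator of phosphofructokinase, went from 9.82, 9.76 and 9.86 to 8.96, 9.13 and 9.07, all lower, a change of -0.76 ± 0.083 (adjusted p = 1.23e-06). NDRG1, a stress-inducible protein, and ANGPTL4, a secreted inhibitor of lipoprotein lipase, fell by 0.65 ± 0.076 and 0.60 ± 0.075. The glucose transporters SLC2A1 and SLC2A3 and the peptide hormone ADM were also among the falls (-0.49, -0.47 and -0.35), while the glycolytic enzymes GAPDH, ENO1 and LDHA did not pass (0.10, 0.036 and -0.051). The falls of PGK1, another glycolytic enzyme (-0.35), and P4HA2, a collagen prolyl hydroxylase (-0.29), completed the 9. Both calls ended without DMSO replicate 2 (-0.31 and -0.24), that of PGK1 also without DMSO replicate 1 (-0.31), that of P4HA2 without DMSO replicate 3 (-0.27) and gefitinib co-culture replicate 2 (-0.28) or 3 (-0.23). HIF1A, the inducible subunit itself, was the rise, at 0.65 ± 0.088 (adjusted p = 2.46e-05), but among its 2 other probes 1 had the opposite sign, and averaging the 3 ended the call (0.21). Without DMSO replicate 1 there were 2 rises and 8 falls. Gefitinib monoculture had 27 of the 31 lower (median -0.78) and co-culture 5 lower and 3 higher (median -0.030).

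Genes of the amino acid response, which ATF4 raises when amino acids are short, showed 2 rises and 5 falls among 28 tested members (median -0.045). Co-culture without the drug had 12 of the 28 higher (median 0.24), beside 3.76% of all genes. In the treated co-culture 13 of the 28 were lower than in that group, beside 1.97% of all genes. ASNS, asparagine synthetase, was at 10.39, 10.58 and 10.51 with DMSO and at 10.16, 10.19 and 10.19 in the treated co-culture, a change of -0.31 ± 0.075 (adjusted p = 0.0108). The groups did not overlap, and the means of gefitinib monoculture and co-culture were 10.41 and 11.47. The ASNS call ended without DMSO replicate 2 (-0.26) and with the mean of its probes (-0.17). DDIT4, an inhibitor of mTORC1, changed by -0.38 ± 0.078 (adjusted p = 0.00247). VLDLR, a lipoprotein receptor, and TRIB3, a pseudokinase, changed by -0.37 and -0.30, and both calls ended without DMSO replicate 2 (-0.32 and -0.28). That of VLDLR ended also without DMSO replicate 1 (-0.35) or gefitinib co-culture replicate 2 (-0.31), that of TRIB3 without DMSO replicate 3 (-0.28) or gefitinib co-culture replicate 1 (-0.26) or 3 (-0.24). SLC7A5, a transporter of large neutral amino acids, was the fifth fall (-0.24), and its call ended without DMSO replicate 2 (-0.24) or 3 (-0.22) or gefitinib co-culture replicate 1 (-0.24) or 2 (-0.23). The amino acid transporters SLC38A2 and SLC1A5 were the rises (0.39 and 0.26), and both calls ended without DMSO replicate 2 (0.32 and 0.25) or 3 (0.37 and 0.23) and without gefitinib co-culture replicate 3 (0.31 and 0.29). The list had 1 fall and no rise without DMSO replicate 2, 3 falls and no rise without DMSO replicate 3, 3 falls and 1 rise without gefitinib co-culture replicate 1 or 2, and 5 falls and no rise without its replicate 3. With cyclic loess it had 3 falls and 3 rises, and with neqc 2 falls and no rise.

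PHGDH, the first enzyme of serine synthesis, was 1 of 2 lower members of the 14 tested in serine and one-carbon metabolism (median -0.041). It went from 10.71, 10.78 and 10.77 to 10.11, 10.37 and 10.21, a change of -0.52 ± 0.084 (adjusted p = 1.73e-04), with a mean of 9.91 in gefitinib monoculture and 11.71 in co-culture. The other was SHMT1, cytosolic serine hydroxymethyltransferase (-0.30), whose call ended without DMSO replicate 2 (-0.29) or 3 (-0.30) or gefitinib co-culture replicate 1 (-0.25). Cytosolic aminoacyl-tRNA synthetases, which load amino acids onto tRNA, had 0 of 18 members past limma's test and 3 at an unadjusted p under 0.05, with 1 fall with the mean of the probes, the intensity trend or median scaling of the scanner values (median -0.026, turning to 0.023 with cyclic loess and 0.0049 with median scaling of the authors' values).

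Of 16 tested ER chaperones and folding enzymes 5 were lower and 15 had a negative change (median -0.19). SDF2L1, a component of the ER chaperone complex, changed by -0.47 ± 0.093 (adjusted p = 0.00196). CRELD2, which is induced by ER stress, P4HB, a protein disulfide isomerase, and ERO1A, which reoxidises that enzyme, changed by -0.40, -0.31 and -0.30. All 3 of these calls ended with neqc (-0.44, -0.31 and -0.33), the first without gefitinib co-culture replicate 1 (-0.31) the second without DMSO replicate 3 (-0.28) and the third without DMSO replicate 1 (-0.29) or 2 (-0.26) or gefitinib co-culture replicate 1 (-0.28) or 2 (-0.27). XBP1, a transcription factor of the ER stress response, was the fifth fall (-0.30), and its call ended without DMSO replicate 2 (-0.24) or gefitinib co-culture replicate 1 (-0.29) or 2 (-0.26). With neqc 1 ER gene was called lower, without gefitinib co-culture replicate 1 there were 2, and without DMSO replicate 2 or gefitinib co-culture replicate 2 there were 3. Of 18 heat shock genes 1 rose and 4 fell (median -0.10). The HSP70 relative HSPA4 rose by 0.62 ± 0.091 with its other probe of opposite sign and averaging both ended the call (0.22). The 4 falls, HSPA1B, BAG3, DNAJB1 and DNAJA1, lay between -0.25 and -0.35, and none was called with neqc or cyclic loess or without DMSO replicate 1 or 2 or gefitinib co-culture replicate 2. There were 2 rises and 1 fall without DMSO replicate 3, 1 fall without gefitinib co-culture replicate 1, and 2 falls without its replicate 3, gefitinib monoculture replicate 1 or 2 or co-culture replicate 2.

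NRF2 targets protect cells from oxidants and export conjugated drugs. Of 20 tested members 4 fell (median -0.075), and the count was 4 without any 1 of the 12 arrays, with 1 rise gained without gefitinib co-culture replicate 2. NQO1, a quinone reductase, was at 11.17, 11.16 and 11.09 with DMSO and at 10.32, 10.49 and 10.66 in the treated co-culture, all lower, a change of -0.65 ± 0.088 (adjusted p = 2.51e-05), although its other probe had the opposite sign. Gefitinib monoculture and co-culture had means of 10.84 and 10.89 for NQO1. The drug transporter ABCC3 went from 9.31, 8.96 and 9.26 to 8.59, 8.64 and 8.63, a change of -0.56 ± 0.09 (adjusted p = 1.94e-04). TKT, transketolase of the pentose phosphate pathway, fell by 0.47 ± 0.083. The fourth call was that of ABCC2, another transporter, at 7.28, 7.16 and 6.97 with DMSO and at 6.82, 6.69 and 6.73 in the treated co-culture. Its probe was detected on all 3 arrays of each other group but on 1 of 3 treated co-culture arrays, so the treated level lay at or near background and the size of its fall is uncertain (-0.39, and -1.15 with neqc).

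Lung epithelial and secretory genes had 1 rise and 5 falls among 14 tested members (median -0.13). Besides MUC1, the mucin MUC16 went from 10.61, 10.55 and 10.58 to 10.01, 9.94 and 9.98, a change of -0.60 ± 0.096 (adjusted p = 1.73e-04). MUC16 stood at 10.90 in gefitinib monoculture and at 10.09 in co-culture. FOXA2, a transcription factor of airway epithelium, and NAPSA, an aspartic protease of alveolar cells, fell by 0.46 ± 0.081 and 0.40 ± 0.086. AGR2, a protein disulfide isomerase of mucus-secreting cells, changed by -0.30, and its call ended without DMSO replicate 1 (-0.33) or 3 (-0.25) or gefitinib co-culture replicate 1 (-0.30) or 3 (-0.25). The 1 rise rested on DEFB103B, a defensin near background, at 6.86, 6.61 and 6.63 with DMSO and at 6.92, 7.22 and 7.08 in the treated co-culture. Its probe was detected on 1 of 3 DMSO arrays and on all 3 treated arrays, so the size of the rise is uncertain (0.37, and 1.09 with neqc). The call ended without DMSO replicate 2 (0.33) or 3 (0.34) or gefitinib co-culture replicate 2 (0.30).

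Of 16 tested epithelial junction and keratin genes 3 fell (median -0.15). The keratins KRT8 and KRT19 fell by 0.61 ± 0.097 and 0.55 ± 0.077 (adjusted p = 1.80e-04 and 3.89e-05). KRT8 was at 11.83, 11.75 and 11.75 with DMSO and at 11.16, 11.06 and 11.30 in the treated co-culture, with means of 10.43 in gefitinib monoculture and 11.91 in co-culture. With 1 rise beside them, the falls were also 3 without gefitinib co-culture replicate 2, and 5 with the mean of each gene's probes. CDH1, E-cadherin of epithelial junctions, changed by -0.39 ± 0.092 (adjusted p = 0.00758), a call that ended without DMSO replicate 3 (-0.33) and with neqc (-0.42). Of 11 mesenchymal genes 2 rose and 1 fell (median -0.035). Besides TAGLN, the intermediate filament VIM changed by 0.31 ± 0.091 (adjusted p = 0.0313), and that call ended without any 1 DMSO replicate (0.30 to 0.32) and without gefitinib co-culture replicate 1 or 3 (0.26 each). LOX, which crosslinks collagen, fell by 0.43 ± 0.085. There were 2 mesenchymal falls without co-culture replicate 2.

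Among 15 collagens, laminins and integrins 2 rose and 2 fell (median -0.17), with ITGA6, an integrin that binds laminin, at 0.42 ± 0.088 and the laminin chain LAMA5 at -0.37 ± 0.075. The laminin chain LAMB3, which changed by 0.28, lost its call without DMSO replicate 1 (0.24) or 3 (0.27) or gefitinib co-culture replicate 1 (0.24) or 2 (0.25), and COL4A1 is described above. The 2 falls were 4 without gefitinib co-culture replicate 3 and 3 without DMSO replicate 3, and 1 without DMSO replicate 1 or gefitinib co-culture replicate 1 or 2. Of 13 matrix proteases and plasminogen system genes 1 rose and 2 fell (median 0.027), the falls being SERPINE2, a protease inhibitor (-0.42 ± 0.078), and MMP9, a gelatinase (-0.41 ± 0.079). The coagulation inhibitor TFPI changed by 0.27, and its call ended without any 1 DMSO replicate (0.26 to 0.27) and without gefitinib co-culture replicate 2 (0.24) or 3 (0.26). The remaining lists are given beside the 8.43% of all genes that passed. In them 1 of 28 ribosome biogenesis genes rose and 1 fell (7.14%). Of 35 oxidative phosphorylation genes 1 fell (2.86%), and of 26 autophagy and lysosome genes 2 fell (7.69%). Among 6 metallothioneins 1 rose (16.7%), and among 9 drug tolerance genes 1 fell (11.1%). The members called were, in that order, NOLC1 (0.29) and POLR1B (-0.37), NDUFB8 (-0.26), CTSZ (-0.36) and NPC1 (-0.27), MT1G (0.37) and ALDH3A2 (-0.30). Each of these 7 calls ended without at least 1 of the DMSO replicates (0.23 to 0.31 for the rises, -0.30 to -0.23 for the falls). The ribosome biogenesis counts depended on the scaling, with 4 rises and 1 fall with cyclic loess, 3 and 1 with median scaling of the authors' values, 3 and 0 with the mean of each gene's probes and none with neqc. They were 2 rises and 1 fall without gefitinib co-culture replicate 3. Oxidative phosphorylation had 1 rise and no fall with cyclic loess or median scaling of the authors' values, and 3 falls with the intensity trend. Autophagy and lysosome genes had 1 rise and 1 fall without gefitinib co-culture replicate 2.

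The labelled cell type was checked against markers. All 10 HCC827 epithelial markers were detected on every array of both groups compared, with a summed level of 15.03 to 15.06 with DMSO and 14.72 to 14.82 in the treated co-culture. Of these 10 markers 3 fell, KRT8, KRT19 and CDH1, and 8 had a negative change (median -0.24). KRT18, KRT7 and ESRP1 did not pass as reported but were called lower in some settings. Their changes there were -0.27 without co-culture replicate 1, -0.22 with the intensity trend and -0.25 with only probes detected on all 12 arrays, in that order. EPCAM did not pass (0.065) but was called higher with the mean of its probes (0.25). Of 16 fibroblast markers 3 were detected on all 3 arrays of the DMSO group and 3 on all 3 of the treated co-culture, and the summed level was 10.80 to 10.89 and 10.75 to 10.82. THY1, PDGFRA, POSTN and MEOX2 were the 4 of these 16 detected on no array. COL5A2, COL6A3, FBN1 and PDGFRB were each detected on 0 DMSO arrays and 1 treated array, and DCN on 1 and 2. COL1A2 was detected on 2 DMSO arrays and 1 treated array, and COL3A1 and FAP on 1 and 0. The 1 fibroblast marker that passed, COL5A1, was lower in the treated co-culture (-0.40 ± 0.089, adjusted p = 0.00499), and COL1A1, LUM and FBLN1 did not pass (-0.0095, 0.043 and 0.088). Of 6 endothelial markers none was detected on all 3 arrays of either compared group (summed level 9.13 to 9.23 and 9.15 to 9.26). Of 7 leukocyte markers 5 were detected on all 3 DMSO arrays and 4 on all 3 treated arrays (11.24 to 11.34 and 11.20 to 11.26), and PTPRC and CD3E were each detected on at most 1 array of either group. Of the 5 leukocyte markers tested 0 passed limma's test, with 3 at an unadjusted p under 0.05.

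The level of the treated co-culture lay outside both single states for 43 genes (0.376% of those tested), which passed the test in 1 direction against DMSO monoculture, against gefitinib monoculture and against co-culture. The 3 tests share the gefitinib co-culture arrays. Of the 43 genes 40 were lower and 3 higher. The count was between 31 and 43 when 1 array was left out. The lower ones were led by SNAR-A1, IGFBP3, SNORD13, SLCO2A1, HIPK2 and HMGCS1.

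SLCO2A1 showed the pattern most plainly, with 9.70, 9.65 and 9.72 with DMSO and 8.57, 8.63 and 8.73 in the treated co-culture, all lower, a change of -1.05 ± 0.073 (adjusted p = 7.47e-10). Its means were 9.85 in gefitinib monoculture and 9.44 in co-culture. Against these 2 groups its changes were -1.20 (adjusted p = 1.2e-12) and -0.79 (adjusted p = 7e-08). HIPK2 had means of 8.91 and 8.66 in the single states and values of 8.22, 8.30 and 8.31 in the treated co-culture against 9.27, 9.25 and 9.30 with DMSO. ALDOC, NQO1, ABCC3, FGFR3, LAMA5, SERPINE2, LTBP3 and ASNS, described above, were also among the 40. The 3 higher genes were TNFAIP3, MYBL1, a transcription factor of the MYB family (0.37 ± 0.09, adjusted p = 0.0114), and TMEM45A, a transmembrane protein (0.30 ± 0.083, adjusted p = 0.0224). The call of MYBL1 against DMSO ended without DMSO replicate 2 (0.32) or 3 (0.30) and with neqc (0.46). That of TMEM45A ended without DMSO replicate 1 (0.31) or 2 (0.28), without gefitinib co-culture replicate 1 (0.32) or 2 (0.27), with neqc (0.47) and with the mean of its probes (0.054), 1 of which had the opposite sign.

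**Figure D5:**
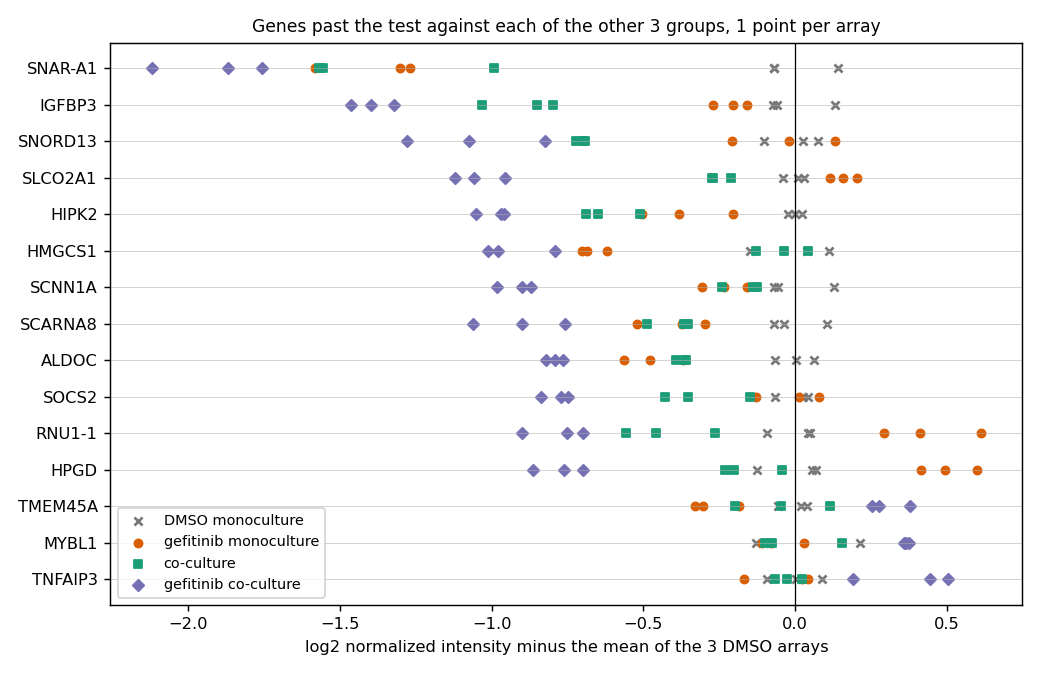
Levels on each array, as the difference from the mean of the 3 DMSO arrays (horizontal axis, log2 normalized intensity), for 15 of the 43 genes that passed the test against each of the other 3 groups (vertical axis), 12 lower and 3 higher. The gefitinib co-culture arrays (diamonds) lie to the left of all other arrays for SLCO2A1 and IGFBP3 and to the right for TNFAIP3, MYBL1 and TMEM45A.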

How the data were processed

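Total RNA of HCC827 cells was measured on 12 Illumina bead arrays. Per the labels' protocols, RNA was extracted with Qiazol and an RNeasy kit and labelled with the Ambion MessageAmp kit. The authors deposited 2 tables: normalized intensity values, and a scanner table with an unnormalized intensity and a detection p-value for each probe, per the file headers. The sources used here name neither the normalization nor the calculation of that p-value. The rows of the 6 co-culture arrays in the scanner table were not in probe order (correlation with the same array's normalized values at most 0.00108, against at least 0.99988 for the monoculture arrays). The normalized table was therefore used, and the scanner intensities entered only an alternative, after each of their rows had been matched to the probe whose normalized values it followed (48104 rows, r at least 0.99986).

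Of 48107 probes 3 lacked a value on some array and were dropped. The platform annotation gave 1 gene symbol to 30113 probes, several to 8 and none to 17983, and a lookup by gene identifier changed 0 symbols. The deposited intensities were log2 transformed. A probe counted as detected on an array when its rank was within the number of probes with a detection p under 0.05 there, which gave the same call as the p itself for 95.8% to 96.4% of probes. Probes detected on all 3 arrays of a group were kept, and each gene was represented by its brightest kept probe (11449 genes, among which 2885 had several kept probes). With limma 3.58.1 in R 4.3.3, all 12 arrays were fitted in 1 model of group means with moderated variances, and two-sided tests had Benjamini-Hochberg adjustment over all genes and a threshold of 0.05. Errors of changes are standard errors of that model. The number of arrays limits the precision. In simulated data of the same size, 96 of 100 genes changed by 0.5 on the log2 scale were recovered and 100 of 100 changed by 1, with 9 false calls. The simulated noise was independent for each gene and held no shift between arrays. Of the called genes only 69 higher and 79 lower ones reached 0.5, with median absolute changes of 0.36 and 0.33. The simulation therefore cannot show how reliable the smaller calls are.

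The genes named are, by rule, the 12 largest changes in each direction among called genes without overlap, up to 4 called members of each list in each direction, the 6 largest in each direction beyond both single states, EGFR, EGR1, DUSP6 and all cell type markers. Other called list members, and a few known genes that did not pass, were named after their values were seen. The comparison and its 35 gene lists and 4 marker lists were chosen with earlier results of these data known. Of 861 list genes 816 had a named probe. Lists are described by counts and medians, without a set test. Alternatives were background correction with neqc, 3 other scalings, the filter on dim probes, the choice of probe, an intensity trend, a fit of only the arrays compared, the replicate number as a block and each array left out. Replicate numbers did not pair the arrays of the 2 groups: the correlations of deviations from the group means were 0.024, 0.027 and -0.09. Promoter sequences (RefSeq, GRCh38.p14) entered no test.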

Additional observations from a re-analysis of the deposited data

Results flagged for a closer look

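By limma's interaction test (adjusted p under 0.05), the change with gefitinib in co-culture differed from that in monoculture for 3223 of 11449 genes (28.2%). Of all genes 12.3% had a positive interaction and 15.8% a negative one. For these genes the treated co-culture departed from the sum of the single changes on the log2 scale. Among the genes named above, this interaction was 2.74 for EGR1, 1.90 for NEK2, 1.45 for MCM4 and 1.38 for PCNA, and it was -1.70 for LCN2 and -1.36 for CFB. For NEK2 and PCNA the other probe had the opposite sign in the comparison with DMSO monoculture, as given above. Outside the gene-level comparison, 551 of 4821 kept probes without 1 gene symbol (11.4%) passed the test between gefitinib co-culture and DMSO monoculture, 432 higher and 119 lower.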

How the results depend on the processing

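The count of 965 genes was 537 with neqc and lay between 549 and 1061 when 1 array was left out. The 359 higher genes were 217 with neqc and 195 to 385 with 1 array left out, and the 606 lower ones were 320 with neqc, 390 with cyclic loess and 333 to 676 with 1 array left out. The 1045 genes of co-culture against DMSO monoculture were 638 with neqc and 627 to 1164 with 1 array left out. The cause was not tested. The counts for the other 3 contrasts, the interaction and the 43 genes outside both single states stayed within 1.5 times their value in every setting run. Of the 965 calls, 493 were shared with neqc, 749 with cyclic loess and 531 without DMSO replicate 2, and with the mean of a gene's probes the call of H3P6 turned from -0.30 to 0.22. The replicate numbers gave no clear pairing of the arrays. With the replicate block 1040 genes were called, of which 947 were among the 965. An added filter by the matched detection p, chosen after seeing the data, gave 961. Of 135 named genes that passed, 73 passed in every setting that tested them and 62 lost the call in at least 1. With only probes detected on all 12 arrays 9295 genes were tested, so dim genes could be absent there. Reversals were seen for genes that had not passed: COL1A1 was at 0.0025 with cyclic loess and 0.021 with median scaling of the authors' values, and with 1 array left out the changes were -0.15 to 0.020 for EGFR, -0.080 to 0.11 for COL1A1, -0.041 to 0.11 for LUM, -0.072 to 0.13 for CLDN4 and -0.10 to 0.0075 for ELF3. Low signal limits dim genes: 11 called genes were detected on no DMSO array.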

Other observations

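Small non-coding RNAs of some classes were often lower, a pattern chosen after its values were seen and not tested. How well the labelling kit captures such RNAs was not tested either. By RefSeq class, 18 of 66 tested H/ACA small nucleolar RNAs, most of which guide pseudouridylation, were lower in the treated co-culture and 1 was higher (median log2 change -0.09). Of 17 small Cajal body RNAs 10 were lower (median -0.34), and of 10 spliceosomal small nuclear RNAs 7 were lower (median -0.54). Of 41 tested microRNA genes 0 were lower and 1 was higher (median 0.030). Of the C/D small nucleolar RNAs, most of which guide methylation, 2 of 60 were lower and 5 higher (median 0.00082). In all genes 5.29% were lower and 3.14% higher. With gefitinib alone, against the same DMSO arrays, the medians were -0.23 for H/ACA, -0.35 for Cajal body, 0.094 for spliceosomal and -0.092 for C/D RNAs, and with co-culture alone they were -0.058, -0.16, -0.33 and 0.011. RNU1-1, a U1 small nuclear RNA with near-identical copies, had means of 9.42 with DMSO, 9.86 with gefitinib alone, 8.99 in co-culture and 8.63 in the treated co-culture. The U1 genes RNU1-1, RNU1-3, RNVU1-18 and RNVU1-7 (-0.78, -0.65, -0.61 and -0.57) were all among the 7 lower spliceosomal RNAs. Their probes may share signal, so the count and the medians of that class rest in part on U1. RNU4-1 and RNU4-2 did not pass (-0.096 and -0.10).

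Pseudogenes went the other way, with 26 of 202 tested higher and 6 lower (median 0.0068). Probes of pseudogenes can share signal with the parent gene. Their median was 0.012 with gefitinib alone and 0.017 in co-culture alone.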
